A study of Mus musculus with 12 samples.

Results

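The endoplasmic reticulum unfolded protein response was followed in stimulated mouse CD4+ T cells through 35 genes, listed by symbol and found in the deposited table by Ensembl identifier. All 35 were among the 39017 gene identifiers of the table, and all 35 passed the filter on low counts, which left 14585 genes. The 12 libraries form 4 groups of 3, XXSry, XY-Sry, XX and XY-. All mice were of the SJL strain, in a model that uncouples the gonad from the sex chromosomes. Sry, the gene that starts testis development, is missing from the Y chromosome here, hence the name Y-. XXSry and XY-Sry mice have it back as a transgene and are labelled male, while XX and XY- mice have none and are labelled female. Every mouse was gonadectomized at 4 to 6 weeks of age, with carprofen around surgery and amoxicillin in the water afterwards. Lymph nodes were taken at 8 to 12 weeks, CD4+ T cells were isolated by magnetic negative selection, and the cells were cultured with anti-CD3/CD28 beads for 36 hours in all 4 groups. The transgene and the gonad type before surgery go together in this model and cannot be told apart. The labels do not say that every library is from its own animal, so p-values reflect only the variation among these 12 libraries, part of which may be technical.

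The unfolded protein response adjusts the folding capacity of the endoplasmic reticulum (ER) to its load. IRE1 (encoded by Ern1), PERK (Eif2ak3) and ATF6 sense unfolded protein in the ER membrane. IRE1 splices Xbp1 mRNA so that it encodes an active transcription factor, ATF6 is cleaved to release another, and PERK phosphorylates the translation factor eIF2 and so favours ATF4. XBP1 and ATF6 raise transcription of ER chaperones, disulfide isomerases, translocation factors and the machinery of ER-associated degradation, and Xbp1 is itself a target of ATF6. The arm through XBP1 is best known in the immune system for the secretory build-up of plasma cells, and activated T cells also use it. Gene counts do not separate spliced from unspliced Xbp1 mRNA.

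Genes of this response share promoter elements, which are shown because they are the sites through which ATF6 and XBP1 are known to act. The ER stress response element (ERSE) is CCAAT, 9 bases of any kind and CCACG. ERSE-II is ATTGG, 1 base and CCACG. A further element bound by XBP1 and ATF6 is TGACGTGG. Both strands were searched in RefSeq promoter windows of build GRCm38.p6, from 250 bases before to 50 after a gene's start, which held 30 of the 35 genes. ERSE lay in 9 of the 30 genes, against 0.137% of all 27025 genes with a window. ERSE-II lay in 2 of the 30, against 0.0444%, and the third element in 1 of the 30, Sec24d, against 0.714%. ERSE was defined on genes of this kind, Hspa5 among them, and the frequencies of all these elements here are only a description. The elements are printed below in the CCAAT or ATTGG orientation, with the fixed letters in capitals.
Hspa5: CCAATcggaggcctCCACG
Hsp90b1, upstream copy: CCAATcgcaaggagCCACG
Hsp90b1, downstream copy: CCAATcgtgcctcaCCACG
Calr: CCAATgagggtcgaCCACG
Canx: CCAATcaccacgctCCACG
Creld2: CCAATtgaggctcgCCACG
Dnajc3: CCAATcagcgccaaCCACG
Pdia6: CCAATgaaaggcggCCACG
Syvn1: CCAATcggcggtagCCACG
Derl3: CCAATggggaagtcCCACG
Herpud1, ERSE-II: ATTGGgCCACG
Dnajb11, ERSE-II: ATTGGcCCACG

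The windows of 4 genes are given in full, 5′ to 3′ on the gene's own strand, because the results below turn on them: Xbp1, Pdia4 and Herpud1 differed between the groups and Hspa5, which encodes the chaperone BiP, is the classic ERSE gene. Capitals mark an ERSE in Hspa5 and an ERSE-II in Herpud1. The windows of Xbp1 and Pdia4 held none of the 3 spellings, which says only that these letters are not in these windows. The RefSeq starts of Xbp1, Pdia4 and Herpud1 lie upstream of the GENCODE genes.
Xbp1, plus strand, chr11:5520391-5520690: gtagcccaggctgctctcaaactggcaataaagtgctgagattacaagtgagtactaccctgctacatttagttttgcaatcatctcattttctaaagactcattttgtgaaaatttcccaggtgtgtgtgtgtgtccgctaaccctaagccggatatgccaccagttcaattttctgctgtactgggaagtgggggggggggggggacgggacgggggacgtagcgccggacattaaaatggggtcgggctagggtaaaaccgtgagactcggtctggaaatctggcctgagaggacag
Pdia4, minus strand, chr6:47813463-47813762: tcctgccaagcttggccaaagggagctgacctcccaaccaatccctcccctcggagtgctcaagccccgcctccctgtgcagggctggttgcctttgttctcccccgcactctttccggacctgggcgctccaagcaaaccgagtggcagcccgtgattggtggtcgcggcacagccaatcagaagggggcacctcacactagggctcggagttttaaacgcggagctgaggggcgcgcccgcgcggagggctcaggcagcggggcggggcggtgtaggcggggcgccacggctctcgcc
Herpud1, plus strand, chr8:94386179-94386478: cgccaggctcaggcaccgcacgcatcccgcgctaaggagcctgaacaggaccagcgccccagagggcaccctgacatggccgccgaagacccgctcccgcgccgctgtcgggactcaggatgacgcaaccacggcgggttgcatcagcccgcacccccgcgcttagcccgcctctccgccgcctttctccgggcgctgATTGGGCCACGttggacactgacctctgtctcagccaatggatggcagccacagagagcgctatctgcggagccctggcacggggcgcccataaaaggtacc
Hspa5, plus strand, chr2:34771840-34772139: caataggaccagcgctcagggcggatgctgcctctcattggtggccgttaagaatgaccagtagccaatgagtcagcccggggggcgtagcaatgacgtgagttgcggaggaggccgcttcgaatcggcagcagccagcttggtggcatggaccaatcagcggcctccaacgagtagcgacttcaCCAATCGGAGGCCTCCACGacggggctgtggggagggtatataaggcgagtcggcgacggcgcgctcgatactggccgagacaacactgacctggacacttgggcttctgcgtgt

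Total counts per library ran from 11664186 to 16710188. The libraries went with their labels: Sry had 1349 to 2132 counts in each Sry library and at most 1 elsewhere. Cd4 was at 810.2 to 915.8 CPM (read counts scaled to a common library size, with TMM factors) in every library, while the summed B cell markers were at 3.33 to 6.68 CPM. Of the plasma cell markers, Jchain, Tnfrsf17 and Mzb1 each stayed under 0.5 CPM, while Sdc1, Derl3 and Igkc reached 3.59, 3.03 and 2.63 CPM. Ighm, at 289.3 to 367.1 CPM, made up most of their summed level of 293.5 to 373.9 CPM. XX replicate 3 stood apart, with 5.01% of its counts from mitochondrial genes. Together the 35 genes gave 6714 to 7173 CPM per Sry library and 6841 to 7398 CPM per library without Sry.

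Xbp1 was lower in cells with Sry, and the genes for BiP and the other main ER chaperones were not called. In the mean of both sex chromosome types, 3 of the 35 genes fell with Sry (Xbp1, Pdia4 and Herpud1) and 0 rose. Called genes were 8.57% of the 35, where 5.44% of all tested genes were called in either direction and 3.31% were called lower. The 35 were chosen with earlier results of these data known, so these shares are a description. An unadjusted p under 0.05 was found for 20% of the 35 genes and for 21% of all tested genes. The median log2 fold change of the 35 was -0.02, against -0.00089 over all tested genes, with 20 of the 35 below 0. The expression of 2 of the 35 genes, Xbp1 and Pdia4, lay in all 6 Sry libraries below that of all 6 others, as it did for 1.64% of tested genes. Log2 fold changes are given as Sry over no Sry with a standard error, and a gene was called at an edgeR adjusted p under 0.05 over all tested genes.

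**Figure D1:**
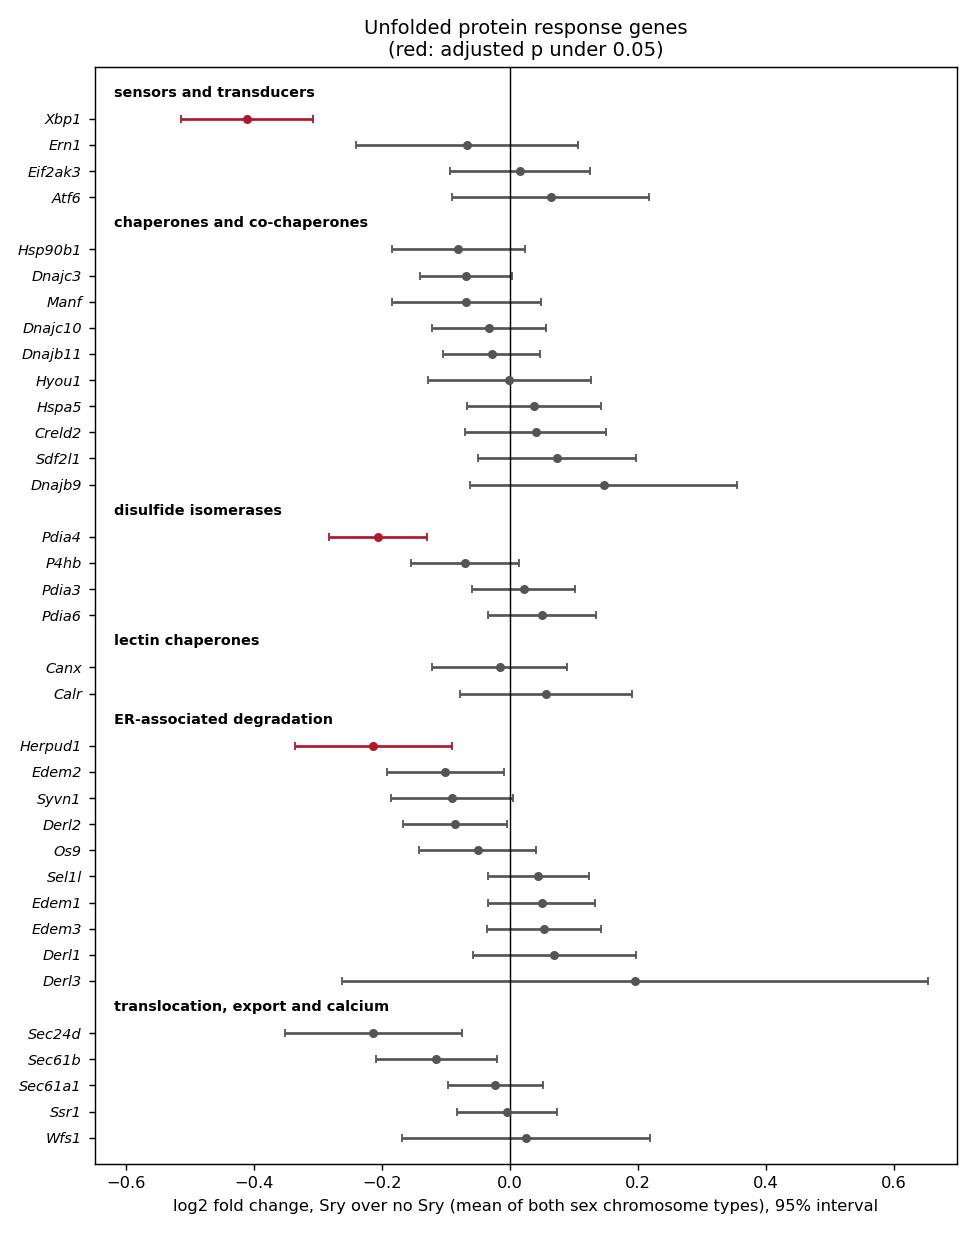
Log2 fold change (x axis) of each of the 35 genes, Sry over no Sry in the mean of both sex chromosome types, with 95% intervals and genes in blocks by role down the page. Red marks the 3 called genes, Xbp1 at -0.41, Herpud1 at -0.21 and Pdia4 at -0.21, while the intervals of most other genes cross 0.

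Xbp1 (chr11:5520659-5525893) had the largest fall of the 35. It stood at 271.9, 285.6 and 290.3 CPM in XXSry cells and at 262.9, 261.7 and 269.1 CPM in XY-Sry, against 381.1, 416.0 and 365.3 CPM in XX and 305.4, 369.2 and 348.8 CPM in XY-. The highest Sry library thus lay below the lowest library without Sry, XY- replicate 1. The log2 fold change was -0.41 ± 0.05 (95% interval -0.51 to -0.31, edgeR adjusted p = 0.00049), a difference of -24.8%. In bulk RNA, fewer cells with the transcript and less transcript per cell cannot be told apart. Over 17 alternative settings the log2 fold change stayed between -0.45 and -0.38, and the gene was called in all 17. Mitochondrial counts moved with Sry as well, at 2.27% to 2.63% in the 6 Sry libraries against 2.66% to 5.01% in the 6 others, and their part in the result was not tested. Without XX replicate 3, the library highest in them, Xbp1 stood at -0.43. The remaining libraries without Sry still lay above all 6 Sry libraries in mitochondrial counts, so that fit cannot separate these counts from Sry. Of 5 CD8 T and NK cell markers, 2 were tested. Cd8a was lower with Sry, at 1.41 to 2.45 CPM against 2.93 to 6.49 CPM without. The more abundant Cd8b1 was not called, with a log2 fold change of 0.15 ± 0.07 (edgeR adjusted p = 0.24). Its level was 10.7 to 13.1 CPM with Sry and 10.2 to 12.4 CPM without. The summed level of the 5 was 13.7 to 16.4 CPM in Sry libraries and 14.0 to 19.5 CPM in the others. Of 7 T cell markers only Cd5 was called, higher with Sry at a log2 fold change of 0.20 ± 0.04. Cd4 and Cd28 stood at 0.02 and 0.09, and Cd3d, Cd3e, Cd3g and Lck at -0.10, -0.10, -0.05 and -0.04. The summed level of the 7 was 2885 to 3158 CPM in Sry libraries against 2884 to 3059 CPM in the others. The part of the CD8, NK and T cell markers in the result was not tested.

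Xbp1 was also called within each sex chromosome type, in the fit that takes its spread from all 12 libraries. XXSry against XX gave -0.46 ± 0.07 (edgeR adjusted p = 0.015) and XY-Sry against XY- gave -0.37 ± 0.07 (edgeR adjusted p = 0.029). By edgeR it was the only one of the 35 genes called in either, where 0.453% and 0.679% of all tested genes were called, and DESeq2 called Pdia4 as well in both. Those shares rest on single libraries: within XX they ran from 0.0135% without XXSry replicate 2 to 0.986% without XX replicate 2, and within XY- from 0.054% without XY-Sry replicate 2 to 1.23% without XXSry replicate 3. The difference between these changes, XX minus XY-, was -0.09 ± 0.10 (95% interval -0.29 to 0.12, edgeR adjusted p = 0.9996). The call within XX ended without XXSry replicate 1 or 2 (edgeR adjusted p = 0.069 and 0.11). It also ended with only XX and XXSry in the fit, where 0.0282% of all tested genes were called. The call within XY- ended without XXSry replicate 2, XY- replicate 2, XY- replicate 3 or any XY-Sry library (edgeR adjusted p = 0.055 to 0.17), with Xbp1 still at -0.31 or lower in each of these fits.

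**Figure D2:**
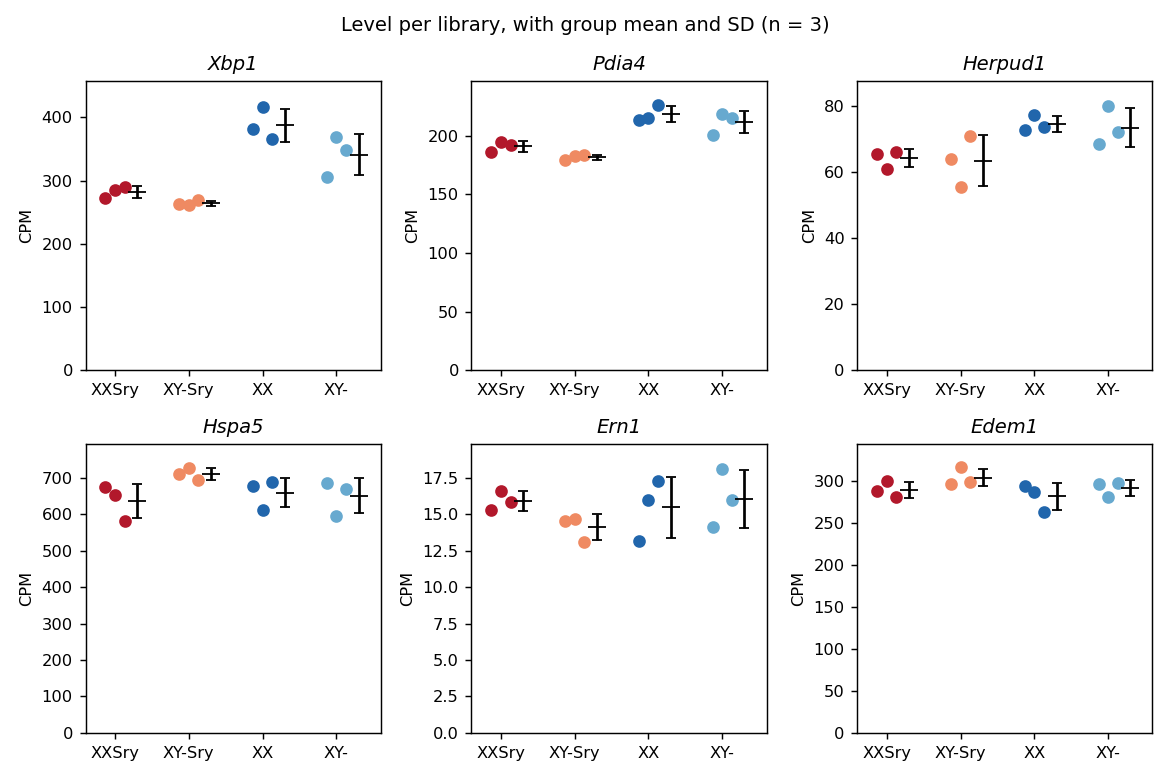
CPM (y axis, from 0) of Xbp1, Pdia4, Herpud1, Hspa5, Ern1 and Edem1 in each library (points) of the 4 groups, with the group mean and SD beside them (n = 3). Xbp1 and Pdia4 sit lower in all Sry libraries, Herpud1 overlaps in 1 library, and Ern1 and Edem1 overlap widely, and Hspa5 is highest in XY-Sry.

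The sensor genes Ern1, Atf6 and Eif2ak3 were not called. Ern1, the kinase and nuclease that splices Xbp1, had 15.3, 16.6 and 15.8 CPM in XXSry cells and 14.6, 14.7 and 13.1 CPM in XY-Sry, against 13.1, 16.0 and 17.3 CPM in XX and 14.1, 18.1 and 15.9 CPM in XY-. These ranges overlap, and the log2 fold change was -0.07 ± 0.08 (95% interval -0.24 to 0.11, edgeR adjusted p = 0.69). Atf6, the membrane-bound transcription factor, averaged 28.1 ± 2.2 CPM with Sry and 26.9 ± 2.7 CPM without (SD, n = 6), a log2 fold change of 0.06 ± 0.07. Eif2ak3, which encodes PERK, averaged 44.1 ± 3.5 CPM with Sry and 43.5 ± 2.1 CPM without (SD, n = 6), a log2 fold change of 0.02 ± 0.05 (edgeR adjusted p = 0.67 and 0.90 for these 2). Per kilobase of exon the sensors were among the scarcer of the 35, with Eif2ak3 at 7.27, Atf6 at 2.98 and Ern1 at 1.88 CPM per kb, against 98.2 CPM per kb for Xbp1.

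None of the chaperone genes was called. Hspa5 had 673.4, 652.0 and 582.2 CPM in XXSry cells and 711.2, 726.9 and 693.4 CPM in XY-Sry, against 676.3, 612.8 and 689.4 CPM in XX and 685.5, 595.6 and 669.3 CPM in XY-. All 3 XY-Sry libraries lay above every library without Sry, while the XXSry libraries overlapped them and held the lowest value of all. Its log2 fold change was 0.04 ± 0.05 in the mean (95% interval -0.07 to 0.14), -0.05 ± 0.07 within XX and 0.13 ± 0.07 within XY- (edgeR adjusted p = 0.72, 0.78 and 0.48). Of the 10 chaperones and co-chaperones, edgeR and DESeq2 each called 0, and 0 had an unadjusted edgeR p under 0.05. Dnajb9, a BiP co-chaperone (ERdj4), had 14.1, 11.2 and 14.1 CPM in XXSry cells and 11.9, 10.5 and 9.54 CPM in XY-Sry, against 10.5, 10.6 and 12.3 CPM in XX and 8.77, 12.2 and 10.1 CPM in XY-. Its values overlap between all 4 groups, with a log2 fold change of 0.15 ± 0.10. Dnajb11 (ERdj3), a soluble BiP co-chaperone, stood at -0.03 ± 0.04, and Dnajc3 (p58IPK), a co-chaperone that also inhibits PERK, at -0.07 ± 0.03. Hsp90b1, the ER member of the Hsp90 family (GRP94), stood at -0.08 ± 0.05. Hyou1, a large Hsp70-like exchange factor for BiP, stood at -0.00087 ± 0.06. Sdf2l1, a component of BiP complexes, and Creld2, an ER stress-inducible secreted protein, stood at 0.07 ± 0.06 and 0.04 ± 0.05. Manf, a stress-induced secreted factor, and Dnajc10 (ERdj5), a reductase that works with degradation, stood at -0.07 ± 0.05 and -0.03 ± 0.04. Exons of Hsp90b1 and Manf overlap other transcribed genes, and without strand information their reads could not be told apart.

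Of the disulfide isomerases, which form and rearrange disulfide bonds, Pdia4 (chr6:47796141-47813430) fell. It had 185.6, 194.7 and 192.1 CPM in XXSry cells and 178.9, 182.6 and 183.2 CPM in XY-Sry, against 213.5, 215.2 and 225.9 CPM in XX and 200.7, 218.7 and 215.1 CPM in XY-. No Sry library reached the lowest of the others. The log2 fold change was -0.21 ± 0.04 (95% interval -0.28 to -0.13, edgeR adjusted p = 0.0047), and all 17 alternative settings called it. Within XX and within XY- it stood at -0.19 ± 0.05 and -0.22 ± 0.05 and was not called (edgeR adjusted p = 0.10 and 0.062). The related isomerase genes were not called. Pdia3 (ERp57), which acts on glycoproteins, averaged 614 ± 9 CPM with Sry and 606 ± 34 CPM without (SD, n = 6). P4hb, the prototype protein disulfide isomerase, averaged 528 ± 13 CPM with Sry and 554 ± 30 CPM without (SD, n = 6), a log2 fold change of -0.07 ± 0.04 (edgeR adjusted p = 0.33). Pdia6, a further member of the family, stood at 0.05 ± 0.04. The lectin chaperones calreticulin (Calr) and calnexin (Canx), which hold glycoproteins for refolding, stood at 0.06 ± 0.06 and -0.02 ± 0.05. A processed pseudogene named Calr-ps had 4731 counts over the 12 libraries, so reads of Calr may be shared.

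ER-associated degradation was represented by 10 genes, of which Herpud1 fell. Herpud1 (chr8:94386438-94395377), an ER stress-induced membrane protein that organises the degradation complex, had 65.5, 61.0 and 65.9 CPM in XXSry cells and 64.0, 55.6 and 70.8 CPM in XY-Sry, against 72.7, 77.2 and 73.6 CPM in XX and 68.6, 79.8 and 72.0 CPM in XY-. Only XY-Sry replicate 3 reached into the range of the libraries without Sry, above XY- replicate 1. The log2 fold change was -0.21 ± 0.06 (95% interval -0.34 to -0.09, edgeR adjusted p = 0.042). Leaving out single libraries ended this call in 9 of 12 fits (edgeR adjusted p = 0.053 to 0.12), all but those without XXSry replicate 3, XY- replicate 1 or XY-Sry replicate 3. Within XX and within XY- the change was -0.22 ± 0.08 and -0.21 ± 0.08 (edgeR adjusted p = 0.26 and 0.28).

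The other degradation genes were not called. Sel1l and Syvn1, the adaptor and the ubiquitin ligase (HRD1) of the main retrotranslocation complex, stood at 0.04 ± 0.04 and -0.09 ± 0.04. Edem1, a lectin that directs misfolded glycoproteins to degradation, stood at 0.05 ± 0.04, and the related Edem2 and Edem3 at -0.10 ± 0.04 and 0.05 ± 0.04. The derlins Derl1 and Derl2, parts of the exit channel, stood at 0.07 ± 0.06 and -0.09 ± 0.04, and Os9, a lectin of the same complex, at -0.05 ± 0.04 (edgeR adjusted p of these 8 = 0.19 to 0.55). Derl3 was near the floor of the data, with 17 to 49 reads per library and 1.95 ± 0.65 CPM with Sry against 1.73 ± 0.36 CPM without (SD, n = 6), and its 95% interval ran from -0.26 to 0.65. Syvn1 and Derl2 share exonic bases with Mrpl49 and Mis12 on the opposite strand.

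None of the 5 genes of translocation, export and calcium was called. Both edgeR and DESeq2 called 0 of the 5, and 2 had an unadjusted edgeR p under 0.05. Sec24d, a cargo adaptor of COPII vesicles, had 19.0, 21.3 and 21.7 CPM in XXSry cells and 19.5, 16.0 and 18.0 CPM in XY-Sry, against 22.9, 23.3 and 23.5 CPM in XX and 20.03, 21.2 and 23.0 CPM in XY-. Sry libraries lay at the low end with some overlap, and the log2 fold change was -0.21 ± 0.06 (edgeR adjusted p = 0.070). Sec61b, a small subunit of the translocation channel, stood at -0.12 ± 0.04 (edgeR adjusted p = 0.15) and the channel's main subunit Sec61a1 at -0.02 ± 0.03. Ssr1, of the translocon-associated complex, stood at -0.0047 ± 0.04. Wfs1, the ER membrane protein wolframin, was at 5.65 ± 0.45 CPM with Sry and 5.54 ± 0.33 CPM without (SD, n = 6).

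Over all 32 genes that were not called, the 95% interval lay within 0.2 of 0 on the log2 scale for 25. For all 32 the lower bound was above the estimate for Xbp1 of -0.41, the largest fall of the 35. The same held for the called genes Pdia4 and Herpud1, so it does not set the 32 apart. The interval of Xbp1 itself reached above the lowest of the 32 bounds, -0.35. The 11 genes with an ERSE or ERSE-II in their window had a median log2 fold change of -0.02 with 1 called lower. The 19 with a window and neither had a median of -0.03 with 2 called lower, where 3.31% of all tested genes were called lower. With so few calls, and sets made by exact spelling in these windows, whether the elements matter was not tested. The changes in the separate sex chromosome types, which share no libraries, had the same sign for 60% of the 35 genes and for 65.5% of all tested genes.

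**Figure D3:**
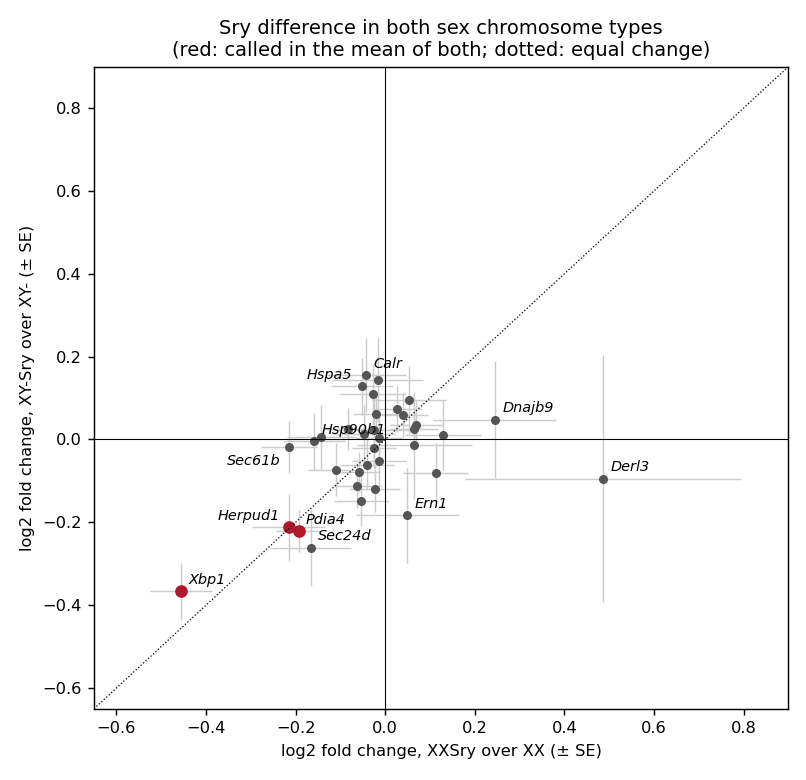
Log2 fold change of the 35 genes with Sry in XX cells (x axis, XXSry over XX) and in XY- cells (y axis, XY-Sry over XY-), with standard errors. Xbp1, at -0.46 and -0.37, and Pdia4 and Herpud1 (red) lie in the lower left near the dotted line of equal change, while most other genes cluster round 0.

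Beyond the 35 genes, 118 further genes of ER stress and the secretory pathway were examined in 8 lists, of which 111 were tested. By edgeR 8 fell with Sry and 0 rose, or 7.21% of those tested, against 5.44% of all tested genes. DESeq2 called 8 as well, where it called 3.63% of 27235 genes with no filter on low counts. The lists were chosen with earlier results of these data known, so these shares are a description. Of the 8 that edgeR called, 4 were among the 10 genes of the PERK arm and stress-induced transcription factors, whose median was -0.39. Nupr1, a small stress-induced nuclear protein, averaged 0.99 ± 0.25 CPM with Sry and 2.18 ± 0.50 CPM without (SD, n = 6), a log2 fold change of -1.11 ± 0.19. Its level with Sry was below that of Derl3, 1.95 CPM, so this change lay near the floor of the data. Chac1, a glutathione-degrading enzyme induced through ATF4, averaged 4.39 ± 0.74 CPM with Sry and 6.51 ± 1.12 CPM without (SD, n = 6), a change of -0.57 ± 0.13. Ddit3, the stress transcription factor CHOP, averaged 21 ± 2.1 CPM with Sry and 27.8 ± 2.4 CPM without (SD, n = 6), a change of -0.40 ± 0.07. Ppp1r15a (GADD34), which directs the phosphatase that reverses PERK's mark on eIF2, averaged 23.1 ± 2.1 CPM with Sry and 30.2 ± 3.4 CPM without (SD, n = 6), a change of -0.38 ± 0.08 (edgeR adjusted p of the 4 = 0.0044 to 0.022). The call of Chac1 ended without XXSry replicate 2, XY-Sry replicate 1 or XY-Sry replicate 2 (edgeR adjusted p = 0.066 to 0.069) and that of Ppp1r15a without XY-Sry replicate 1 (edgeR adjusted p = 0.052). These genes also answer to amino acid shortage and other stresses through ATF4.

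Among oxidative folding genes Ero1l, the oxidase that recharges disulfide isomerases and also a target of the low-oxygen response, averaged 62.4 ± 7.2 CPM with Sry and 85.3 ± 9.0 CPM without (SD, n = 6), a log2 fold change of -0.46 ± 0.08 (edgeR adjusted p = 0.0037). Within XY- it was the only one of the 111 that edgeR called, at -0.55 ± 0.11, or 0.901% against 0.679% of all tested genes. DESeq2 called 2 of the 111 there, against 0.94% of 27235 genes. Within XX edgeR called 0 of the 111, and DESeq2 called 4, against 0.977% of 27235 genes. The DESeq2 fit had no filter on low counts, which the 111 had passed, so its shares are not a like comparison. An unadjusted edgeR p under 0.05 within XX was found for 22.5% of the 111 and 14% of all tested genes. The Ero1l call within XY- ended without XXSry replicate 2, XY- replicate 2 or any XY-Sry library (edgeR adjusted p = 0.058 to 0.21). Ppib, a prolyl isomerase, stood at -0.15 ± 0.04, and the signal peptidase subunits Spcs2 and Sec11c at -0.17 ± 0.04 and -0.18 ± 0.05. The calls of Ppib and Sec11c each ended in 10 of 12 fits without 1 library (edgeR adjusted p = 0.055 to 0.13), all but those without XX replicate 1 or XXSry replicate 3, and that of Ppib also with no filter on low counts. In the lists of other ER chaperones, N-glycosylation, stress transducers and their proteases, further degradation factors and COPII export, edgeR and DESeq2 each called 0 genes. Unadjusted edgeR p-values under 0.05 were found for 1 of 9, 4 of 15, 1 of 8, 6 of 17 and 4 of 20 tested genes in that order, against 21% of all tested genes. The list medians ran from -0.05 to 0.04.

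**Figure D4:**
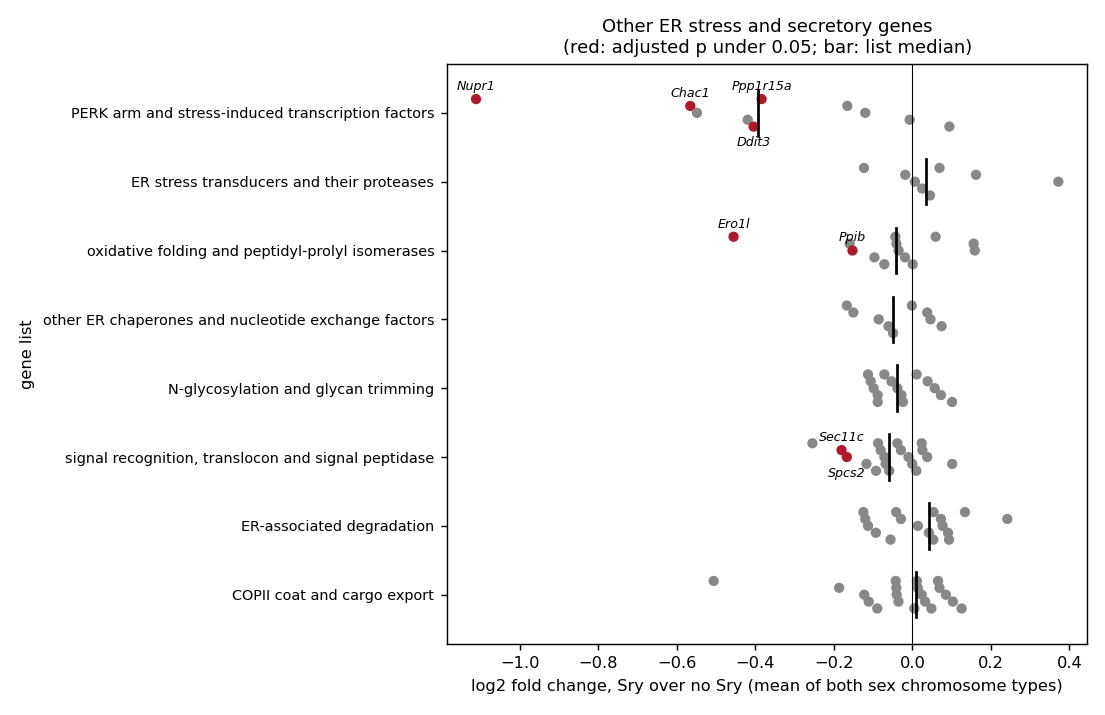
Log2 fold change (x axis), Sry over no Sry, of the 111 tested genes in 8 further lists (rows), with the list median as a bar. Called genes are red and named, from Nupr1 (near the floor of the data) at -1.11 to Ppib at -0.15. Of the 8, 4 belong to the list of the PERK arm and stress-induced transcription factors.

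Sex chromosomes made no called difference in these genes. In the mean of both gonad types, XX over XY-, edgeR and DESeq2 each called 0 of the 35 and 3 (8.57%) had an unadjusted edgeR p under 0.05, against 14.2% of all tested genes, where 0.137% of all tested genes were called. Xbp1 averaged 283 ± 10 CPM in XXSry cells and 265 ± 4 CPM in XY-Sry, and 387 ± 26 CPM in XX and 341 ± 33 CPM in XY- (SD, n = 3). The XX mean was the higher at both levels of Sry, with XXSry wholly above XY-Sry and XX overlapping XY-, and the log2 fold change was 0.14 ± 0.05 (95% interval 0.04 to 0.24, edgeR adjusted p = 0.26). The order of the 4 groups in Xbp1 was XX, XY-, XXSry and XY-Sry from high to low. The neighbours XX and XY- were not called apart (0.18 ± 0.07, 95% interval 0.04 to 0.33, edgeR adjusted p = 0.74), nor were XXSry and XY-Sry (0.10 ± 0.07, 95% interval -0.05 to 0.24, edgeR adjusted p = 0.62).

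In XX against XY- without Sry and in XXSry against XY-Sry, edgeR called 0 of the 35 in each, where 0.103% of tested genes were called in both. Without Sry 5.71% of the 35 had an unadjusted edgeR p under 0.05, against 6.37% of all tested genes. With Sry these shares were 14.3% and 10.4%, and DESeq2 called 0 of the 35 in each comparison. Hspa5 had a log2 fold change of -0.16 ± 0.07 (edgeR adjusted p = 0.47) in XXSry over XY-Sry, and Creld2 one of -0.18 ± 0.07 (edgeR adjusted p = 0.46). For the interaction of Sry with the sex chromosomes edgeR called 0 of the 35 and 0% of all tested genes, DESeq2 called 0, and 1 of the 35, Sec61b, had an unadjusted edgeR p under 0.05.

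Chaperone genes were often low together in single libraries, given here as a description. Of the 16 chaperones, isomerases and lectin chaperones, XXSry replicate 3 was the lowest of its group in 11 and the highest in 3. These counts were 13 and 3 for XY-Sry replicate 3, 8 and 1 for XX replicate 2, and 12 and 4 for XY- replicate 2. Each was picked as the library with the most lowest genes in its group. The share over all tested genes was not computed, so the pattern is not shown to be particular to these genes. Calr ranged from 511.5 to 652.4 CPM with Sry and from 483.6 to 642.7 CPM without, and Hyou1 from 167.7 to 216.4 CPM with Sry and from 186.2 to 220.9 CPM without. In XX replicate 3, where mitochondrial counts were high, Hsp90b1 (798.5 CPM) and Manf (161.8 CPM) had their highest values of all 12 libraries and Derl1 (67.8 CPM) its lowest. The coefficient of variation over the 12 libraries was 16.9% for Xbp1, 8.21% for Pdia4 and 9.98% for Herpud1. It was 6.82% for Hspa5, 3.05% for Sec61a1 and 3.10% for Ssr1.

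**Figure D5:**
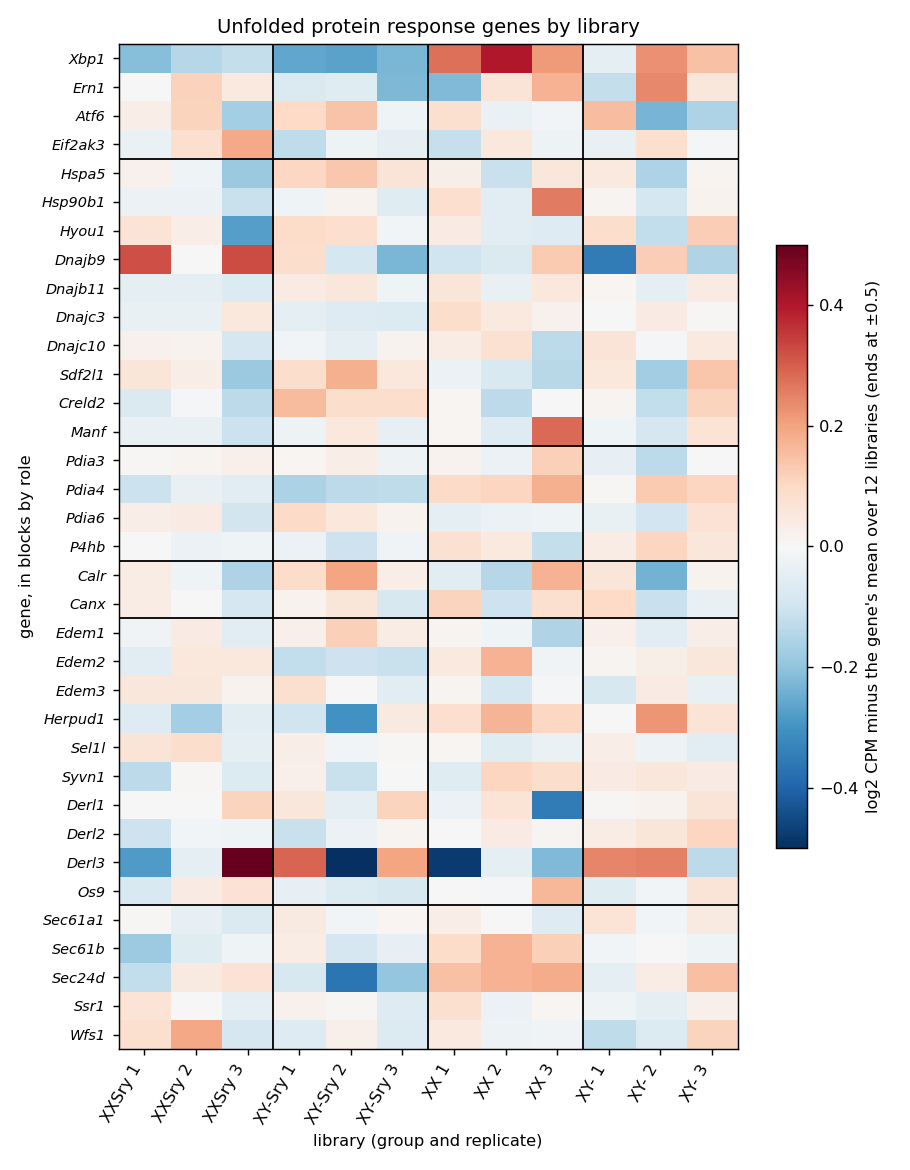
Log2 CPM of each of the 35 genes (rows, in blocks by role) minus its mean over the 12 libraries (columns, by group and replicate), with the colour scale ending at 0.5 either side of 0. Xbp1 and Pdia4 are lower in all 6 Sry libraries, whereas several chaperone rows are low together in single libraries such as XXSry replicate 3 and XY- replicate 2.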

How the data were processed

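The authors deposited raw read counts for Ensembl mouse genes, with a column for each library, as its header and whole numbers show. The submitters' processing notes name bcl2fastq 2.17 and mm10. The aligner, counter, annotation release and strand setting are not given in the sources used here. GENCODE M21 (mm10) supplied symbols and positions.

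The tests used edgeR 4.0.16 (R 4.3.3) on these counts: TMM factors, filterByExpr (minimum count 10, minimum total 15), 1 term per group over all 12 libraries, quasi-likelihood F-test and Benjamini-Hochberg adjustment over 14585 genes in each of 7 comparisons. No 2 libraries of 1 group were alike within sampling noise (12 pairs, chi-square per degree of freedom 2.47 to 18). Alternatives were other size factors, other filters, DESeq2 1.42.0, a replicate block, only the 2 groups compared, and each library left out.

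The members and gene lists were chosen with earlier results of these data known. The text may name all 35 genes and, of the further lists, up to 4 called genes each. Promoter sequences are from RefSeq (GRCm38.p6). Atf6, Hyou1, Manf, Sec61a1 and Derl1 had no window.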

Additional observations from a re-analysis of the deposited data

How the results depend on the processing

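In the mean of both sex chromosome types 3 genes were called lower with Sry under the other size factors, both other filters, DESeq2 and the replicate block, and 2 to 3 in the fits without 1 library, where Xbp1 and Pdia4 were always among them. Same-numbered libraries share only that number, with correlations of their deviations between groups from -0.161 to 0.227, and 3 of 12 libraries went best with their own number. Within XX the count was 1, 2 with DESeq2, 0 with only the 2 groups in the fit and 0 to 1 without 1 library. Within XY- it was 1, 2 with DESeq2, 2 with only the 2 groups in the fit and 0 to 2 without 1 library. The second gene in each of these was Pdia4. The share called over all tested genes moved with the setting as well. Within XX it was 0.453% in the main fit, 0.977% with DESeq2 and 0.0282% with only the 2 groups in the fit. Within XY- these shares were 0.679%, 0.94% and 1.98%, so the second call there came with more calls over all genes. The replicate block changed no count among the 35 genes in any comparison, and the 3 sex chromosome comparisons and the interaction had 0 under every setting run. No called gene changed sign. The cause of the changed counts was not tested, and fits that leave libraries out also rest on fewer of them. Over all tested genes the call count in the mean of both types was 793, with 358 without XY-Sry replicate 1 to 1282 without XXSry replicate 3 among fits that left out a library, and 1494 with no filter on low counts. Genes with few reads, such as Derl3 and Wfs1, carry wide intervals, so small changes there were not detectable at this depth.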
